A study of Mus musculus with 12 samples.

Results

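The genes described here are 10 that are commonly read as transcriptional output and negative feedback of the ERK mitogen-activated protein kinase pathway: the MAP kinase phosphatases Dusp4, Dusp5 and Dusp6, the Sprouty genes Spry1, Spry2 and Spry4, the Sprouty-related genes Spred1 and Spred2, and the ETS transcription factors Etv4 and Etv5. They were taken by name, as all probe sets whose annotation names one of them. This gave 28 of the 45037 probe sets on the array other than controls, and all 10 genes of the 18193 genes with a probe set naming a single gene. RNA came from immortalised striatal cell lines that were derived from embryos of knock-in mice. The mutant line, STHdhQ111/Q111 (Q111 cells), is homozygous for a huntingtin allele with an expanded polyglutamine tract of the kind that causes Huntington's disease, and the line with wild-type alleles, STHdhQ7/Q7 (Q7 cells), is homozygous for an allele with a short tract. The 4 groups, each of 3 Affymetrix mouse arrays, were Q111 cells after 6 h at 42 °C (heat shock), Q111 cells kept at 33 °C, Q7 cells after 6 h at 42 °C, and Q7 cells kept at 33 °C. All were grown in serum with the selection antibiotic G418. Each genotype is 1 cell line, so the huntingtin allele and every other difference between the lines cannot be told apart.

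In this pathway a growth factor binds a receptor tyrosine kinase, adaptors load RAS with GTP, and a kinase cascade of RAF, MEK and ERK follows. Active ERK enters the nucleus, and the transcription factors it acts on switch on genes that restrain it: Dusp6 and Dusp4 encode phosphatases that remove phosphate from ERK in the cytoplasm and the nucleus, Dusp5 encodes a nuclear ERK phosphatase, and Sprouty and Spred proteins act at the level of receptors, RAS and RAF. Etv4 and Etv5 are ETS factors whose transcripts follow fibroblast growth factor signalling in many embryonic tissues. Only transcripts were measured here. ERK phosphorylation and the proteins were not, so the values below are RNA levels, and in bulk RNA fewer cells with a transcript and less of it per cell cannot be told apart.

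Promoter windows from RefSeq (GRCm38.p6, 250 bases before to 50 bases after a gene's start) were matched for 7 of the 10 members, with 8 windows in all. The windows of 4 members are shown because these genes moved in different ways: Dusp6 and Spred2 had the heat-shock changes that differed between the lines, Dusp5 was lower after heat shock in Q7 cells, and Etv5 was lower in the Q111 line at 33 °C. Capitals mark a match to one of the motifs searched, on either strand.
Dusp5, chr19:53528895-53529194, plus strand: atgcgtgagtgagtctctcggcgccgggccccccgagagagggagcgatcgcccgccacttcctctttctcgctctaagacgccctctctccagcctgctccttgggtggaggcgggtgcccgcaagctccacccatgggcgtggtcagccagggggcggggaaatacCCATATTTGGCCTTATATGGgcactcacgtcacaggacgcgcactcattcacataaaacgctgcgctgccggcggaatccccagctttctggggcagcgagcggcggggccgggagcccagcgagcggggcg
Dusp6, chr10:99262981-99263280, plus strand: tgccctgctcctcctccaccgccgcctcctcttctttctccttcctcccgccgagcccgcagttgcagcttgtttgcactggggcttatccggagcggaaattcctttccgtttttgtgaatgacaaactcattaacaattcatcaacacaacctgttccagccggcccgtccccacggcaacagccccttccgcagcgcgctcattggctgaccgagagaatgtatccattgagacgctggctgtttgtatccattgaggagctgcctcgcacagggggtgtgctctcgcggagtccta
Spred2, chr11:19924192-19924491, plus strand: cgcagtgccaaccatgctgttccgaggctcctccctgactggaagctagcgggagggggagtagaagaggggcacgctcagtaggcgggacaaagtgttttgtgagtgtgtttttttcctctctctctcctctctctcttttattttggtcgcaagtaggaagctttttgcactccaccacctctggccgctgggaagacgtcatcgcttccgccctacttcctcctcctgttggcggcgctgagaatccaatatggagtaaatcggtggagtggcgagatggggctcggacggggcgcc
Etv5, chr16:22438319-22438618, minus strand: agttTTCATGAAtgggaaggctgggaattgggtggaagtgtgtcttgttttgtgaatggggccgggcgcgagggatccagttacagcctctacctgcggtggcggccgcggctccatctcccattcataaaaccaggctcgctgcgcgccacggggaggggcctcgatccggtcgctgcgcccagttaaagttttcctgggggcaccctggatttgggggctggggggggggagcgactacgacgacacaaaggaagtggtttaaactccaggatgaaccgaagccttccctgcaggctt
The Dusp5 window holds 2 adjacent CArG boxes, the element bound by serum response factor, CCATATTTGG at chr19:53529063-53529072 and CCTTATATGG at chr19:53529073-53529082. They begin 82 and 72 bases before the start and do not overlap, and 1.63% of all 32851 windows hold a CArG box. The capitals in the Etv5 window are a match to TTCNNGAA, a pair of units of the element bound by heat shock factors. That motif is held by 8.52% of all windows and by windows of 3 members, Etv5, Spred1 and Spry2. The same pair of units in the other order, GAANNTTC, is in no member window and in 7.86% of all. The ETS motif CCGGAA is in the Spry2 window and in 14.9% of all windows. No member window holds TGANTCA (AP-1, 7.81% of all windows) or TGACGTCA (the cAMP response element, 1.79%). TGAATGAA (1.3%) and TGAATGGA (1.21%), 2 of the octamers bound by Capicua, are in no member window either. Other forms of the Capicua octamer were not searched, so whether these windows hold one was not assessed. The shown windows of Dusp6 and Spred2 hold no match to any motif searched.

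Values are log2 levels per probe set as deposited, so a difference of 1 is a doubling. A gene was represented by its brightest probe set (highest mean level on the 12 arrays), and levels of different probe sets were not set against each other. A level of 5.14, the highest of 27 probe sets for bacterial RNA on any array, was taken as the bound of background range. Of the 28 member probe sets 14 were above it on all arrays and 4 were at or below it on all arrays. Changes were tested with limma on all 12 arrays, and a gene was called at an adjusted p under 0.05 over all 18193 genes. The labels give replicate numbers and do not say whether replicates were separate cultures. The p-values therefore set differences only against the spread among these samples, and that spread may be technical. Among marker lists, 7 of 7 neural progenitor markers were above background in at least 1 group, as were 5 of 7 striatal projection neuron markers (not Ppp1r1b and Drd2), 6 of 7 neuron, 3 of 5 astrocyte (not Gfap and S100b), 4 of 6 microglia (not Aif1 and Itgam), 4 of 6 fibroblast, 1 of 5 oligodendrocyte lineage and 1 of 5 endothelium markers. The 3' minus 5' level of actin, a measure of how complete the labelled RNA was, averaged 1.25 ± 0.23 in heat-shocked and 0.72 ± 0.36 in untreated Q111 cells, and 1.48 ± 0.12 in heat-shocked and 0.54 ± 0.16 in untreated Q7 cells (SD, n = 3 each). It thus moved with heat shock in both lines. With it as a covariate 252 genes were called higher and 184 lower for heat shock in Q7 cells, in place of 2232 and 3293, and none of them was a member. Its part in the changes below cannot be told apart from heat shock in Q7 cells, where the groups did not overlap in it (1.35 to 1.60 after heat shock, 0.38 to 0.69 at 33 °C).

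**Figure D1:**
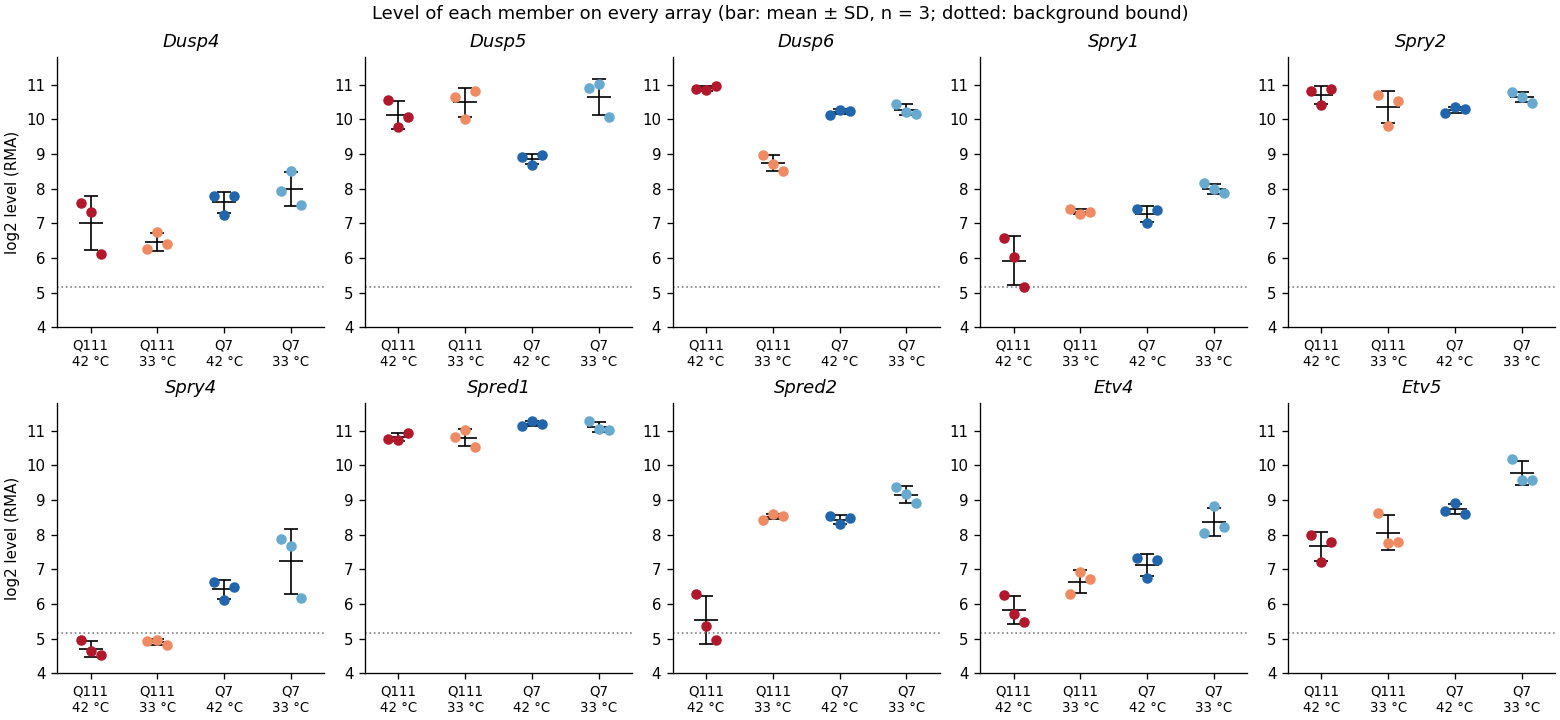
Log2 level of each member gene on every array (points) with the mean and SD of 3 arrays (bars), for heat-shocked and untreated Q111 and Q7 cells. The dotted line is the background bound of 5.14; Dusp6 is low only in untreated Q111 cells, Spred2 is low only in heat-shocked Q111 cells, and Spry4 lies under the bound in both Q111 groups.

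In Q111 cells the 6 h at 42 °C moved single members in opposite directions. Dusp6 rose 4.48-fold and Spred2 fell 7.95-fold, while Spry1 and Etv4 fell by smaller amounts. These were 1 higher and 3 lower of 10 members, where 20% and 28.2% of all genes were called higher and lower and 48.1% in all. The count of called members is therefore near the background, and the individual values carry the description.

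Dusp6 encodes the cytoplasmic phosphatase that acts most selectively on ERK. Its levels were 10.88, 10.84 and 10.97 in heat-shocked Q111 cells, against 8.97, 8.72 and 8.51 in untreated Q111 cells. All heat-shocked arrays lay above all untreated ones, and the change was 2.16 (SE 0.14, limma adjusted p = 2.98e-06). In Q7 cells the levels were 10.14, 10.27 and 10.24 after heat shock and 10.45, 10.20 and 10.17 at 33 °C, so those groups overlapped, with a change of -0.06 (95% interval -0.37 to 0.26). The change in Q111 cells exceeded that in Q7 cells by 2.22 (SE 0.20, adjusted p = 0.00137). Untreated Q111 cells were the group that stood apart, and after heat shock the Q111 level was above the Q7 level by 0.68 (SE 0.14, adjusted p = 0.00599).

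Spred2 encodes a membrane protein that blocks activation of RAF by RAS. Its levels were 6.29, 5.36 and 4.95 in heat-shocked Q111 cells, against 8.44, 8.59 and 8.54 in untreated Q111 cells. The heat-shocked arrays were all lower, 1 of them within background range, and the change was -2.99 (SE 0.28, adjusted p = 1.71e-05). In Q7 cells the levels were 8.53, 8.29 and 8.49 after heat shock and 9.38, 9.16 and 8.91 at 33 °C. These did not overlap either, but the change of -0.72 (SE 0.28) missed the threshold (adjusted p = 0.0715). It passed in the fit of the Q7 groups alone (0.0117) and without replicate 1 or replicate 3 of the heat-shocked Q111 cells (0.00802 and 0.0238). The change in Q111 cells was lower than that in Q7 cells by a log2 difference of -2.27 (SE 0.39, adjusted p = 0.0094).

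Spred2 has 4 other probe sets. A second, 1436892_at, was in background range on all 3 heat-shocked Q111 arrays and at least 2.56-fold lower than in untreated Q111 cells (adjusted p over probe sets = 0.00121), and it fell by 1.71 in Q7 cells (SE 0.45, adjusted p = 0.0166). With its heat-shocked Q111 level known only as a bound, it gives no estimate of the difference between the lines. The other 3 were in background range on most arrays, and one of them, 1441802_at, was at least 1.18-fold higher in heat-shocked Q111 cells than in untreated ones, which were in background range (adjusted p = 0.025). With the mean of the 5 probe sets in place of the brightest one, the Spred2 difference between the lines was -0.38 (adjusted p = 0.484), whereas the fall in Q111 cells, -0.79, was still called (adjusted p = 0.00647).

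Spry1, whose product is induced by growth factors and dampens signalling from their receptors, was at 6.58, 6.02 and 5.16 in heat-shocked Q111 cells and at 7.41, 7.26 and 7.33 in untreated Q111 cells. The heat-shocked arrays were lower and more spread, and the change was -1.41 (SE 0.28, adjusted p = 0.00198). It was -1.07 with the actin ratio as a covariate (adjusted p = 0.0706). In Q7 cells Spry1 was at 7.41, 7.01 and 7.40 after heat shock, against 8.15, 7.98 and 7.86 at 33 °C, a change of -0.73 (SE 0.28) with an adjusted p of 0.0755. All 3 heat-shocked arrays were lower there too. Without replicate 1 or 3 of the heat-shocked Q111 cells, which enter this test through the shared estimate of spread, the change was called (adjusted p = 0.0267 and 0.00688). The difference between the lines was -0.69 (95% interval -1.57 to 0.19, adjusted p = 0.359).

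In Q7 cells the members that changed all fell: Dusp5, Etv4 and Etv5 had changes of -1.80, -1.24 and -1.05 on the log2 scale. None was called higher, so the count was 0 higher and 3 lower of 10, where 12.3% and 18.1% of all genes were called higher and lower and 30.4% in all, so this count too is at the background, and none of the 3 was called with the actin covariate. The median change over the 10 members was -0.72, and the median over all genes was 0.0026. In Q111 cells these medians were -0.28 and -0.018. Groups did not overlap for 6 members in Q7 cells, all lower, where 48.8% of all genes did not overlap (21.2% higher, 27.6% lower). In Q111 cells they did not overlap for 4 members, 1 higher and 3 lower, where 54.7% of all genes did not (24.2% higher, 30.5% lower).

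Dusp5 encodes the phosphatase that holds ERK in the nucleus. It was at 8.92, 8.69 and 8.96 in heat-shocked Q7 cells, against 10.90, 11.01 and 10.06 in untreated Q7 cells. Every heat-shocked array was lower by more than 1 unit, and the change was -1.80 (SE 0.29, 3.49-fold, adjusted p = 0.000812). With the actin ratio as a covariate it was -0.77 (adjusted p = 0.498). In Q111 cells the levels were 10.56, 9.77 and 10.06 after heat shock and 10.63, 10.01 and 10.82 at 33 °C, which overlapped, with a change of -0.36 (95% interval -1.0 to 0.28). The difference between the lines was 1.44 (SE 0.41) and missed the threshold (adjusted p = 0.0674). It passed without replicate 3 of the untreated Q7 cells, the lowest array of its group (1.74, adjusted p = 0.0331), without replicate 2 of the heat-shocked Q111 cells (1.62, adjusted p = 0.0479), and with arrays centred on the median of genes (1.82, adjusted p = 0.023).

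Etv4 and Etv5 are close relatives in the PEA3 group of ETS factors. Etv4 was at 6.26, 5.72 and 5.47 in heat-shocked and at 6.29, 6.93 and 6.71 in untreated Q111 cells. In Q7 cells it was at 7.32, 6.75 and 7.28 after heat shock, against 8.03, 8.82 and 8.22 at 33 °C. The arrays did not overlap in either line. The changes were -0.83 in Q111 cells (SE 0.27) with an adjusted p of 0.0275 and -1.24 in Q7 cells (SE 0.27) with an adjusted p of 0.00517, with a difference between the lines of 0.41 (95% interval -0.44 to 1.27). The call in Q111 cells was lost under 11 of 26 alternatives, among them arrays centred on the median of genes (-0.10) and leaving out replicate 2 or 3 of either Q111 group (adjusted p = 0.0664 to 0.1), and that in Q7 cells with the actin ratio as a covariate (-0.97, adjusted p = 0.455).

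Etv5 was at 7.99, 7.20 and 7.79 in heat-shocked Q111 cells and at 8.63, 7.74 and 7.80 in untreated Q111 cells. In Q7 cells it was at 8.69, 8.90 and 8.61 after heat shock, against 10.19, 9.58 and 9.59 at 33 °C. The Q111 groups overlapped (-0.40, 95% interval -1.01 to 0.21) and the Q7 groups did not, with a change of -1.05 in Q7 cells (SE 0.28, adjusted p = 0.0137). That call was lost without replicate 1 of the untreated Q7 cells (-0.85, adjusted p = 0.0596), without replicate 3 of the heat-shocked Q7 cells (-0.99, adjusted p = 0.0516), with the actin ratio as a covariate (-0.51, adjusted p = 0.741) and with arrays centred on the median of genes (-0.70, adjusted p = 0.0998). Another Etv5 probe set, 1420998_at, was in background range on all 3 heat-shocked Q7 arrays and at least 1.73-fold lower there than in untreated Q7 cells (adjusted p over probe sets = 0.00156). The difference of the changes between the lines was 0.66 (95% interval -0.21 to 1.52).

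The remaining members did not pass for heat shock in either line. Spry2, a Sprouty induced by growth factors, was at 10.82, 10.41 and 10.88 in heat-shocked and at 10.70, 9.82 and 10.52 in untreated Q111 cells, a change of 0.35 (95% interval -0.13 to 0.84). In Q7 cells it was at 10.19, 10.37 and 10.29 after heat shock, against 10.79, 10.65 and 10.48 at 33 °C, a change of -0.36 (95% interval -0.84 to 0.12). The values of the 2 lines thus lay on opposite sides of 0, and their difference, 0.72, had an adjusted p of 0.213. Dusp4, a nuclear phosphatase of ERK and of stress kinases, was at 7.58, 7.32 and 6.12 in heat-shocked and at 6.25, 6.75 and 6.39 in untreated Q111 cells, a change of 0.54 (95% interval -0.25 to 1.33). Replicate 3 of the heat-shocked Q111 cells was the low array, and without it the change was 0.98 (adjusted p = 0.0152). In Q7 cells Dusp4 was at 7.78, 7.25 and 7.78 after heat shock, against 7.92, 8.51 and 7.53 at 33 °C, and the groups overlapped (-0.38, 95% interval -1.18 to 0.41).

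Spred1, a Spred protein that brings neurofibromin to the membrane to switch RAS off, differed by 0.016 in Q111 cells (95% interval -0.31 to 0.34) and by 0.085 in Q7 cells (95% interval -0.24 to 0.41). Its heat-shocked arrays spanned 10.74 to 10.94 in Q111 cells and 11.13 to 11.28 in Q7 cells, and its untreated arrays 10.54 to 11.03 in Q111 cells and 11.01 to 11.28 in Q7 cells. Its 8 probe sets differed among themselves: 1423162_s_at rose by 1.01 in both lines (adjusted p over probe sets = 0.0182 in Q111 cells and 0.0275 in Q7 cells), and 1423161_s_at by 0.56 in Q111 cells (adjusted p = 0.0347). Spry4, a Sprouty that restrains growth factor receptors, was in background range in both Q111 groups, so no change can be read there. In Q7 cells it was at 6.64, 6.11 and 6.50 after heat shock, against 7.86, 7.67 and 6.16 at 33 °C, with a change of -0.81 (95% interval -1.60 to -0.02, adjusted p = 0.113). Replicate 3 of the untreated Q7 cells lay within the heat-shocked range, and without it the change was -1.35 (adjusted p = 0.000729). A second Spry4 probe set, 1445669_at, fell by 1.17 in Q7 cells (SE 0.35, adjusted p over probe sets = 0.0305).

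**Figure D2:**
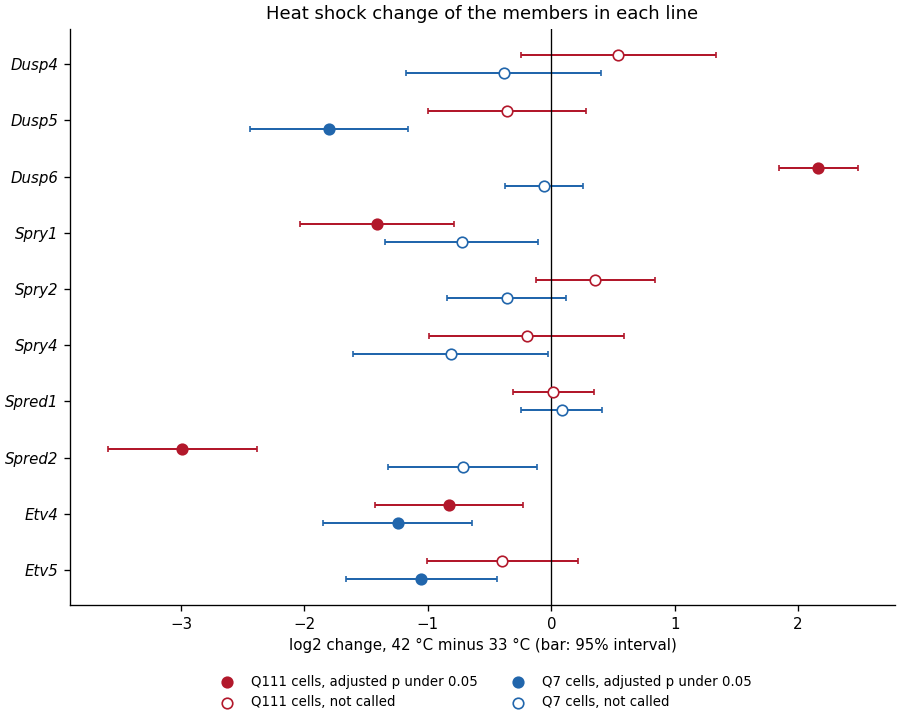
Log2 change on heat shock (42 °C minus 33 °C) of each member in Q111 cells (red, upper) and Q7 cells (blue, lower), with 95% intervals; filled points passed an adjusted p under 0.05. Dusp6 at 2.16 and Spred2 at -2.99 in Q111 cells lie farthest from 0, and in Q7 cells Dusp5, Etv4 and Etv5 lie below it.

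Over the difference of the heat-shock changes, 2 of 10 members were called, Dusp6 higher and Spred2 lower in Q111 than in Q7 cells, where 5.72% of all genes were called (1.21% higher and 4.51% lower). Both comparisons of the lines after and before heat shock share arrays with these changes, so the values are given side by side and were not set against each other. Over all 28 probe sets 4 were called higher and 4 lower for heat shock in Q111 cells, where 42.1% of all probe sets were called (19.8% higher, 22.3% lower), and 1 higher and 6 lower in Q7 cells, where 24.1% were (10% higher, 14.1% lower). For the difference 1 probe set was called higher and 1 lower, those of Dusp6 and Spred2, where 2.68% of all were (0.611% higher, 2.07% lower). Centring each array on the median of genes added 0.73 to every change in Q111 cells and 0.35 to every change in Q7 cells. With it the members called in Q111 cells were 4 higher (Dusp4, Dusp6, Spry2 and Spred1) and 2 lower (Spry1 and Spred2), and their median was 0.45 in place of -0.28, while 60.4% of all genes were called higher and 12.9% lower. In Q7 cells they were 0 higher and 2 lower, with a median of -0.37, while 26.6% of all genes were called higher and 11.3% lower. For heat shock within each line these shares are the background for the gene counts given below under that centring.

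At 33 °C, before any heat shock, 5 of the 10 members were called lower in Q111 cells than in Q7 cells and 0 higher: Spry4, Etv5, Etv4, Dusp6 and Dusp4. The other 5 did not pass, with differences that also lay below 0. Among all genes 5.11% were called higher and 5.68% lower, 10.8% in all. The median difference of the members was -1.09 and that of all genes -0.0041. The arrays of the lines did not overlap for 7 members, all lower, where 27.1% of all genes did not overlap (12.9% higher, 14.2% lower). Under each scaling tried (centring on the gene median, centring on ribosomal protein genes, and a further quantile normalization) the count was again 0 higher and 5 lower. Of all genes 5.34% to 5.41% were called higher and 5.24% to 5.91% lower under these scalings.

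Etv5, from the levels given above, was lower in untreated Q111 cells by a log2 difference of -1.73 (SE 0.28, 3.32-fold, adjusted p = 0.00141) and Etv4 by one of -1.72 (SE 0.27, 3.28-fold, adjusted p = 0.00136). The 3 untreated Q111 arrays lay below the 3 untreated Q7 arrays for both genes. Of the other Etv5 probe sets, 1420998_at was in background range on all 3 untreated Q111 arrays and at least 1.73-fold lower than in Q7 cells (adjusted p over probe sets = 0.0079), and 1450082_s_at gave -1.35, which missed the threshold (adjusted p = 0.0585). The second Etv4 probe set, above background on 8 of 12 arrays, gave -0.54 (adjusted p = 0.506). Both differences were called under every alternative run, with values from -1.88 to -1.13 for Etv4 and from -2.02 to -1.49 for Etv5.

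Dusp6 was lower in untreated Q111 cells by a log2 difference of -1.54 (SE 0.14, 2.91-fold, adjusted p = 2.39e-05), with 8.97 as the highest Q111 level and 10.17 as the lowest Q7 level. Dusp4, at 6.25, 6.75 and 6.39 in untreated Q111 cells and at 7.92, 8.51 and 7.53 in untreated Q7 cells, differed by -1.52 (SE 0.36, 2.87-fold, adjusted p = 0.017). The Dusp4 groups did not overlap, but its call was lost without replicate 1 (adjusted p = 0.0679) or 3 (0.0617) of the untreated Q111 cells or without replicate 2 of the untreated Q7 cells (0.0834). Dusp5 differed by -0.17 (95% interval -0.81 to 0.47), and its groups overlapped. Among the 3 phosphatases Dusp4 and Dusp6 were therefore lower in the Q111 line, while for Dusp5 the interval leaves room for a difference either way.

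Spry4 was at 4.94, 4.95 and 4.81 in untreated Q111 cells, all within background range, against 7.86, 7.67 and 6.16 in untreated Q7 cells. It was at least 4.24-fold lower in Q111 cells, computed against the background bound, and the fitted difference was -2.33 (SE 0.36, adjusted p = 0.00106). The second Spry4 probe set, also with all 3 Q111 arrays in background range, was at least 3.31-fold lower (adjusted p over probe sets = 0.000382), and the remaining 2 were in that range on all 12 arrays. Spry1 was lower on all 3 Q111 arrays by -0.66 (SE 0.28) and Spred2 by -0.63 (SE 0.28), and neither passed (adjusted p = 0.207 and 0.218). Deviations of same-numbered untreated arrays of the lines correlated with r = 0.516, 0.402 and 0.577 across genes. The labels do not say what a replicate number shares, so a pairing is not established. In a fit of the untreated groups alone Spry1 (adjusted p = 0.0184) and Spred2 (adjusted p = 0.0394) were called lower as well, which makes 7 of 10 members. With the number as a block in that fit, added after the data were seen, these were 0.00772 and 0.022, and with the block in the fit of all 12 arrays 5 members were called. The shares of all genes called in these fits are not given here, so the counts of members from them have no background beside them. Spry2 differed by -0.29 (95% interval -0.78 to 0.19) and Spred1 by -0.32 (95% interval -0.65 to 0.01).

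Over all probe sets 9 of 28 were called lower and 0 higher at 33 °C, where 6.78% of all probe sets were called (3.16% higher, 3.62% lower). Of the 14 member probe sets above background on all arrays, 6 were called lower. They included 1423161_s_at (-0.77, adjusted p = 0.032) and 1452911_at (-0.80, adjusted p = 0.0136) of Spred1, whose brightest probe set was not called. The mean of the 8 Spred1 probe sets was lower in Q111 cells by a log2 difference of -0.60 (adjusted p = 0.0494).

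**Figure D3:**
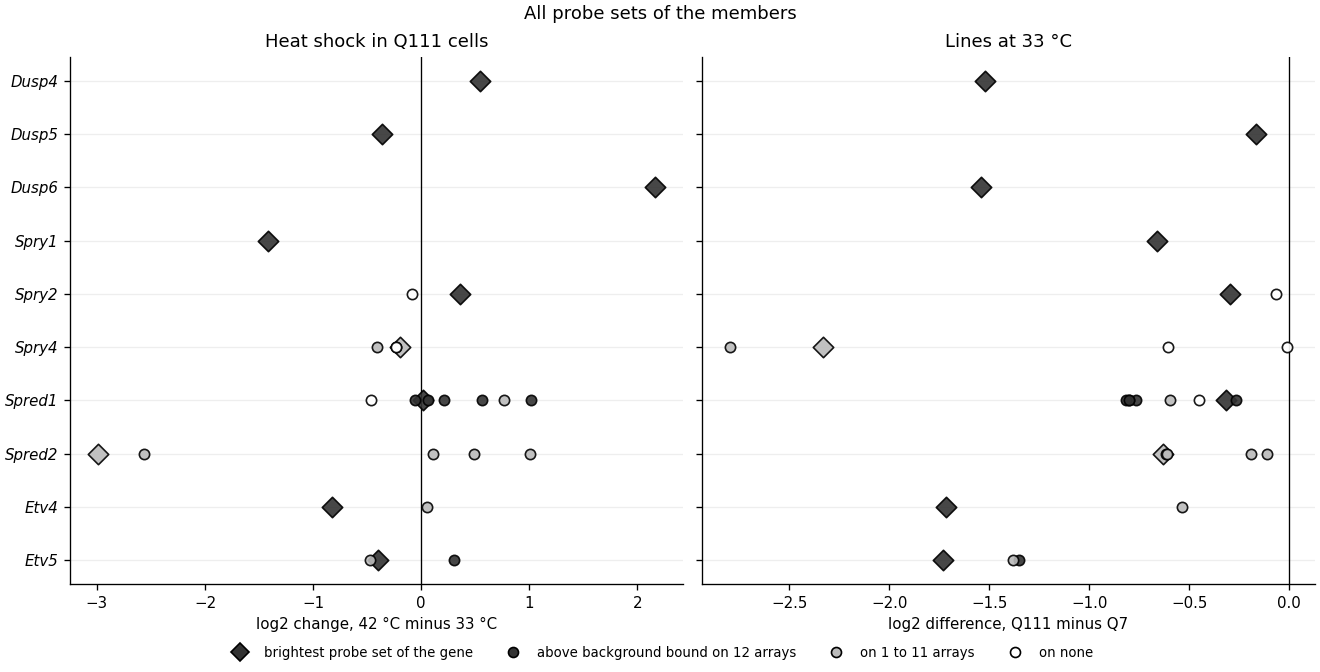
Log2 change on heat shock in Q111 cells (left) and log2 difference between Q111 and Q7 cells at 33 °C (right) for each of the 28 member probe sets; diamonds are the brightest probe set of a gene, and fill shows on how many arrays a probe set was above background. At 33 °C all 28 lie below 0, and on heat shock the probe sets of Spred1 and Spred2 lie on both sides of 0.

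Summed levels of several marker lists differed between the lines at 33 °C. The neural progenitor sum spanned 13.85 to 13.93 in untreated Q111 cells and 14.10 to 14.14 in untreated Q7 cells, with 1 marker called higher and 4 lower of 7. The log2 of the summed fibroblast marker level spanned 14.58 to 14.66 in untreated Q111 cells and 13.81 to 13.94 in untreated Q7 cells (4 of 6 markers above background in a group, Lum and Thy1 in background range). The astrocyte sum spanned 9.41 to 10.95 in Q111 cells and 8.28 to 8.43 in Q7 cells (3 of 5 above background, Gfap and S100b in background range), and the neuron sum 9.29 to 9.81 in Q111 cells and 11.51 to 11.85 in Q7 cells (6 of 7 above background, Nefl in background range). Of these 3 lists 1 fibroblast marker was called higher, 1 astrocyte marker higher and 1 neuron marker lower. The striatal projection neuron sum spanned 11.48 to 11.94 in untreated Q111 cells and 10.80 to 11.40 in untreated Q7 cells. Of its 7 markers 1 was called higher and 1 lower. The microglia sum spanned 8.63 to 9.17 in Q111 cells and 8.14 to 8.36 in Q7 cells, with 0 called higher and 1 lower of 6. The oligodendrocyte lineage and endothelium sums overlapped. The part of all these lists in the differences of the members was not tested. The actin ratio overlapped between the lines at 33 °C. With it as a covariate the count of members was again 0 higher and 5 lower, where 4.6% of all genes were called higher and 4.78% lower.

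After 6 h at 42 °C members differed between the lines in both directions. Dusp5 and Dusp6 were higher in Q111 cells, and Spred2, Spry4, Spry1, Etv4 and Etv5 were lower: 2 higher and 5 lower of 10, where 6.58% and 15.5% of all genes were called higher and lower and 22.1% in all. The median difference of the members was -0.84 and that of all genes -0.0042. Groups did not overlap for 9 members, 3 of them higher and 6 lower in Q111 cells, where 37.2% of all genes did not overlap (14% higher, 23.3% lower). With arrays centred on the median of genes the median difference of all genes was 0.37. The split of the members was then 3 higher (Spry2 as well) and 4 lower, where 25.1% of all genes were called higher and 9.48% lower.

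Dusp5 was higher in heat-shocked Q111 cells than in heat-shocked Q7 cells by 1.27 (SE 0.29, 2.42-fold, adjusted p = 0.00903), its lowest Q111 array at 9.77 standing above its highest Q7 array at 8.96. Spred2 differed by -2.91 on its brightest probe set (SE 0.28, 7.49-fold, adjusted p = 3.07e-05) and by -0.81 on the mean of its 5 probe sets (adjusted p = 0.012). Spry4 was at 4.95, 4.64 and 4.51 in heat-shocked Q111 cells, again in background range, and at least 2.41-fold lower than in heat-shocked Q7 cells (fitted difference -1.71, adjusted p = 0.00559). These 3 differences were called under every alternative run.

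Spry1 was lower in heat-shocked Q111 cells by a log2 difference of -1.35 (SE 0.28, adjusted p = 0.00557), Etv4 by one of -1.30 (SE 0.27, adjusted p = 0.00571) and Etv5 by one of -1.07 (SE 0.28, adjusted p = 0.017). Fitted to the heat-shocked groups alone, Spry1 had an adjusted p of 0.0571, and the Etv5 call was lost under 6 of 27 alternatives. These included the mean of its probe sets (-0.58, adjusted p = 0.131), centring on the gene median (-0.70, adjusted p = 0.0978), a further quantile normalization (-0.75, adjusted p = 0.102) and leaving out replicate 2 of the heat-shocked Q111 cells (-0.84, adjusted p = 0.0551). Spry2 was higher on every Q111 array by 0.42 (SE 0.22), Spred1 lower on every one by -0.39 (SE 0.15), and neither passed (adjusted p = 0.195 and 0.089). Dusp4 differed by -0.60 (95% interval -1.39 to 0.19), with overlapping groups. Over all probe sets 2 were called higher and 12 lower of 28, where 15.4% of all probe sets were called (4.73% higher, 10.7% lower). Of the 12, 5 belonged to Spred1, from -0.65 for 1423161_s_at to -1.18 for 1428777_at. Among these 5, 1443652_x_at was in background range on all arrays, so no difference can be read from it.

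**Figure D4:**
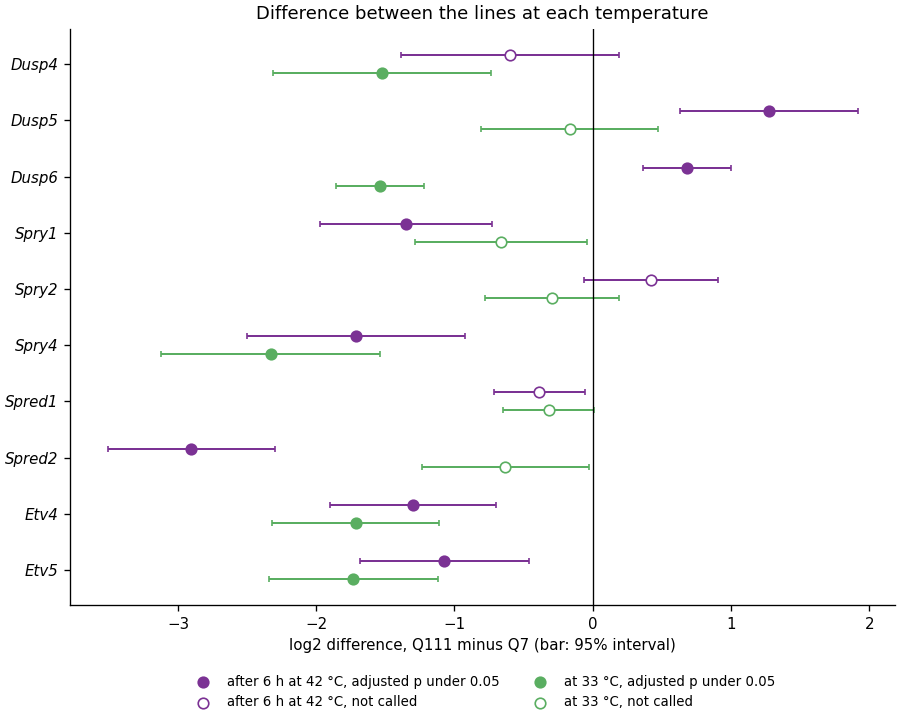
Log2 difference between Q111 and Q7 cells for each member after 6 h at 42 °C (purple, upper) and at 33 °C (green, lower), with 95% intervals; filled points passed an adjusted p under 0.05. At 33 °C all 10 points lie below 0, and after heat shock Dusp5 at 1.27 and Dusp6 at 0.68 lie above it.

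Genes of the same pathway outside the 10 members were taken from lists, of which 104 of 114 listed genes were measured. For heat shock 20% of all genes were called higher and 28.2% lower in Q111 cells, and 12.3% and 18.1% in Q7 cells. For the difference of these changes it was 1.21% and 4.51%, for the lines at 33 °C 5.11% and 5.68%, and after heat shock 6.58% and 15.5%. These shares are the background for the list counts with levels as deposited. On heat shock in Q111 cells the other MAP kinase phosphatases and the growth factors were called near the 48.1% of all genes. The other MAP kinase phosphatases on the array, 8 genes, were called 3 higher and 1 lower for heat shock in Q111 cells and 2 higher and 1 lower in Q7 cells. Dusp1, an immediate early phosphatase induced by stress, rose by 0.62 in Q111 cells (SE 0.17, adjusted p = 0.0109) and by 1.17 in Q7 cells (SE 0.17, adjusted p = 0.000381). Dusp2 rose by 1.63 in Q111 cells (SE 0.16, adjusted p = 2.17e-05) and by 0.60 in Q7 cells (SE 0.16, adjusted p = 0.0129), a difference of 1.02 (adjusted p = 0.0248), and Dusp8, which acts on stress kinases, rose by 1.35 in Q111 cells (adjusted p = 0.0073). Dusp9 fell by 2.54 in Q111 cells and by 2.66 in Q7 cells (SE 0.47 each, adjusted p = 0.0012 and 0.00138). The median change of the list was 0.063 in Q111 cells and 0.023 in Q7 cells, -0.04 and -0.05 with arrays centred on ribosomal protein genes, and 0.79 and 0.37 with arrays centred on the median of genes, where 5 and 3 were called higher and 1 lower in each line.

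Other genes that respond to ERK, 14 measured, were called 4 higher and 4 lower for heat shock in Q111 cells and 1 higher and 5 lower in Q7 cells, with arrays centred on the median of genes giving 10 higher and 0 lower in Q111 cells, where 60.4% of all genes were higher, and 3 higher and 2 lower in Q7 cells. Phlda1, a pleckstrin homology-like protein induced by growth factors, rose by 1.85 in Q111 cells (SE 0.13, adjusted p = 4.54e-06), and Epha2, an ephrin receptor, by 1.15 (SE 0.19, adjusted p = 0.000504). In Q7 cells Plaur, the urokinase receptor, fell by 1.84 (SE 0.18, adjusted p = 4.06e-05) and Myc, the proliferation factor, by 0.79 (SE 0.20, adjusted p = 0.0106). For the difference between the lines 4 of the 14 were called, all higher in Q111 cells and named after their values were seen: Phlda1 (1.62, adjusted p = 0.00209), Myc (1.43, adjusted p = 0.0162), Plaur (1.02, adjusted p = 0.0431) and Ier3 (0.74, adjusted p = 0.0464). At 33 °C 5 of the 14 were lower in Q111 cells and 1 higher, among the lower ones the cell cycle gene Ccnd1 (-2.02, SE 0.19, adjusted p = 2.42e-05), Phlda1 (-1.47, SE 0.13, adjusted p = 1.97e-05) and Fosl1, a FOS-related factor (-1.12, SE 0.26, adjusted p = 0.0163). After heat shock 5 were higher and 2 lower in Q111 cells, the lower ones being Ccnd1 (-1.45, adjusted p = 0.000297) and Epha4 (-1.92, adjusted p = 0.000724).

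Upstream, the receptor tyrosine kinases were called mostly lower on heat shock: 1 higher and 13 lower of 15 in Q111 cells, with a median of -1.53, and 0 higher and 10 lower in Q7 cells, with a median of -1.09. Arrays centred on the median of genes gave 2 higher and 6 lower in Q111 cells and 0 higher and 7 lower in Q7 cells, and the actin covariate gave 0 higher and 8 lower in Q111 cells and no call in Q7 cells. With that covariate 7.71% of all genes were called higher and 16.4% lower in Q111 cells, and 1.39% and 1.01% in Q7 cells. Egfr, the epidermal growth factor receptor, fell by 2.50 in Q111 cells (SE 0.15, adjusted p = 1.42e-06) and by 1.40 in Q7 cells (SE 0.15, adjusted p = 5.77e-05). Pdgfra, a receptor for platelet-derived growth factors, fell by 2.77 in Q111 cells (SE 0.38, adjusted p = 0.000186) and fell by 2.71 in Q7 cells (SE 0.38, adjusted p = 0.000339), and Erbb2 by 2.42 in Q111 cells (adjusted p = 3.85e-05) and by 1.45 in Q7 cells (adjusted p = 0.00148). At 33 °C 2 receptors were higher in Q111 cells and 0 lower: Pdgfra by 2.43 (adjusted p = 0.00121) and the collagen receptor Ddr2 by 3.33 (adjusted p = 2.55e-06).

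Growth factors that signal through ERK, 17 measured, were called 5 higher and 3 lower in each line on heat shock, and with arrays centred on the median of genes 12 higher and 1 lower in Q111 cells and 7 higher and 2 lower in Q7 cells. Fgf18 averaged 7.74 in heat-shocked and 4.87, a mean in background range, in untreated Q7 cells (adjusted p = 0.000176), and Fgf7 fell by 2.66 in Q7 cells (SE 0.23, adjusted p = 2.06e-05). In Q111 cells Ereg, the EGF receptor ligand epiregulin, rose by 1.36 (SE 0.15, adjusted p = 4.15e-05) while Nrg1, a ligand of ERBB receptors, fell by 2.06 (SE 0.18, adjusted p = 1.15e-05). Between the lines at 33 °C 2 were higher and 4 lower in Q111 cells. Igf1, insulin-like growth factor 1, was lower by a log2 difference of -2.96 (SE 0.24, adjusted p = 7.24e-06). Pdgfb averaged 3.42, within background range, in untreated Q111 cells and 7.11 in untreated Q7 cells (adjusted p = 1.45e-06).

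Other brakes on receptors and RAS were called 0 higher and 11 lower of 15 for heat shock in Q111 cells, with a median of -1.18, and 0 higher and 5 lower in Q7 cells, with a median of -0.23 that was 0.12 with arrays centred on the median of genes. That centring gave 2 higher and 7 lower in Q111 cells. Cblb, a ubiquitin ligase for receptors, fell by 2.24 in Q111 cells (SE 0.35, adjusted p = 0.000399) and by 1.84 in Q7 cells (SE 0.35, adjusted p = 0.00212). Il17rd, also called Sef and an inhibitor of fibroblast growth factor signalling, averaged 4.91, a mean in background range, in heat-shocked and 6.94 in untreated Q111 cells (adjusted p = 0.000261). Spred3, the third Spred gene, was in background range on all heat-shocked arrays, at least 1.18-fold lower than at 33 °C in Q111 cells and at least 1.85-fold lower in Q7 cells (adjusted p = 0.00101 and 0.00202). In contrast to the members, 4 of these genes were higher and 1 lower in Q111 cells at 33 °C, among the higher ones Nf1, which encodes the RAS inactivator neurofibromin (1.30, SE 0.20, adjusted p = 0.00101).

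Adaptors and RAS proteins, 15 measured, were called 3 higher and 6 lower for heat shock in Q111 cells and 2 higher and 5 lower in Q7 cells, and with arrays centred on the median of genes 6 higher and 1 lower in Q111 cells and 7 higher and 1 lower in Q7 cells. Gab2, a docking adaptor, was in background range on all heat-shocked Q111 arrays and at least 3.27-fold lower than in untreated Q111 cells (adjusted p = 0.000108), and it fell by 2.31 in Q7 cells (SE 0.35, adjusted p = 0.000592). The cascade kinases and scaffolds, 12 measured, were called 2 higher and 7 lower in Q111 cells and 3 higher and 3 lower in Q7 cells, where that centring gave 5 higher and 3 lower in Q111 cells and 4 higher and 2 lower in Q7 cells. Araf, a RAF kinase, rose by 1.31 in Q111 cells (SE 0.19, adjusted p = 0.000273) and by 1.56 in Q7 cells (SE 0.19, adjusted p = 0.000147), while Rps6ka5, a nuclear kinase under ERK and p38, fell by 2.13 in Q111 cells (SE 0.22, adjusted p = 2.78e-05). No gene of the cascade list was called between the lines at 33 °C by limma.

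Among 8 transcription factors under ERK 0 were called higher and 5 lower for heat shock in Q111 cells and 1 higher and 4 lower in Q7 cells. Elk1, a partner of serum response factor, fell by 2.51 in Q111 cells (SE 0.30, adjusted p = 7e-05) and by 1.42 in Q7 cells (SE 0.30, adjusted p = 0.00374). Cic encodes Capicua, the repressor of Etv4 and Etv5 that ERK inactivates. It averaged 7.57 in heat-shocked and 8.29 in untreated Q111 cells, and 9.23 in heat-shocked and 8.04 in untreated Q7 cells, and it rose in Q7 cells by 1.19 (SE 0.29, adjusted p = 0.00992). After heat shock it was lower in Q111 cells than in Q7 cells by a log2 difference of -1.66 (SE 0.29, adjusted p = 0.00207), and the change on heat shock differed between the lines by -1.91 (adjusted p = 0.0249).

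**Figure D5:**
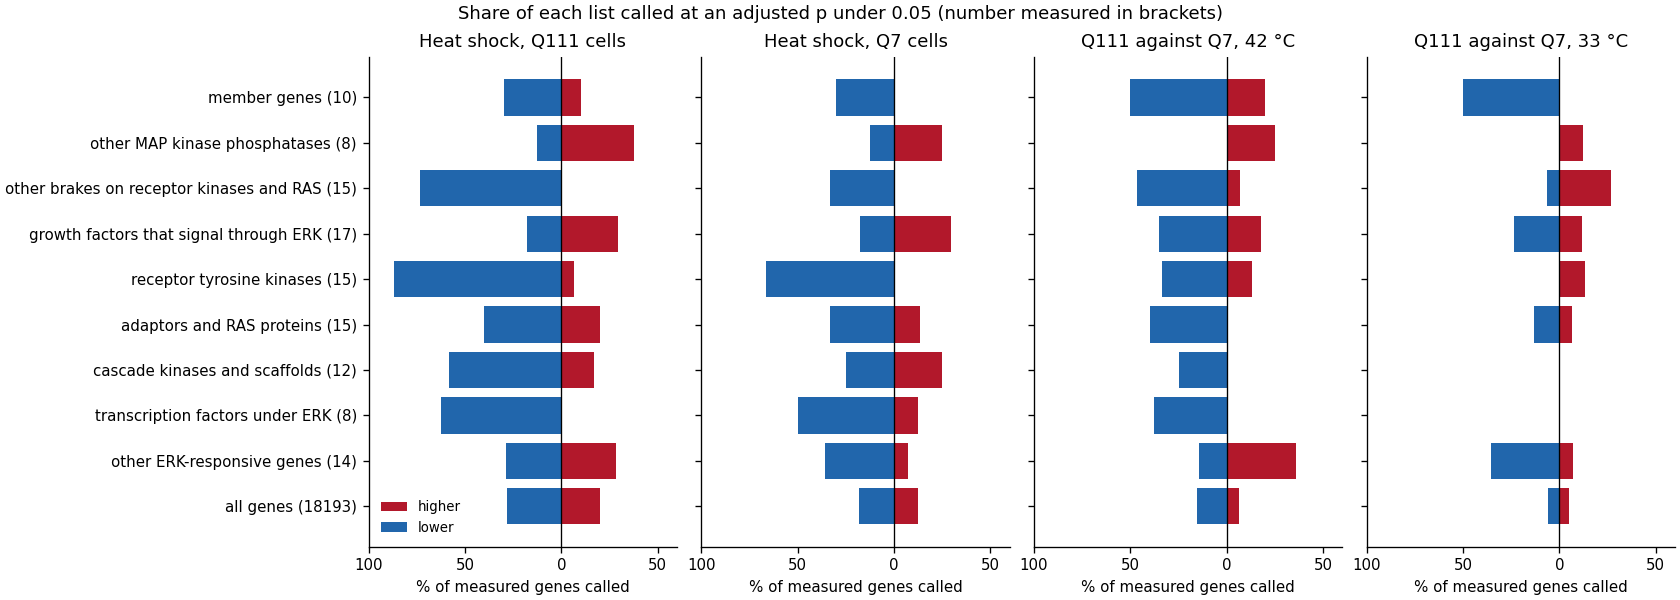
Share of the measured genes of each list that was called higher (red, right) or lower (blue, left) at an adjusted p under 0.05, for heat shock in Q111 and Q7 cells and for Q111 against Q7 cells at 42 °C and at 33 °C. The members, at the top, stand beside all 18193 genes, at the bottom; with levels as deposited, receptor tyrosine kinases have the longest bars to the left for heat shock, and at 33 °C the members have 5 of 10 lower.

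As a description over the 12 arrays, which fall into 4 groups, the genes outside the members with a pattern most like that of Dusp6 were Phlda1 (Pearson r = 0.955), Mfap2 (0.930) and Rhoa (0.908). Phlda1 averaged 11.68 in heat-shocked and 9.83 in untreated Q111 cells, and 11.52 in heat-shocked and 11.30 in untreated Q7 cells, so it too was lowest in untreated Q111 cells. Mfap2 lay close to background in every group. It averaged 5.65 in heat-shocked and 5.11, a mean in background range, in untreated Q111 cells, and 5.58 and 5.61 in Q7 cells. The genes most like Spry2 were Jun (0.866), Pabpn1 (0.842) and Itgb1 (0.839), and those most like Etv5 were Chmp4c (0.970), Ccnd2 (0.960) and Msi2 (0.948). These were taken from 12507 genes whose highest group mean was above background.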

How the data were processed

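Total RNA of mouse striatal lines was profiled on 1-colour Affymetrix arrays, 12 in all and 3 per group. The values the authors deposited are on the log2 scale, 1 value per probe set, from RMA, per the submitters' processing notes. RMA subtracts background, makes the distributions of the arrays alike and combines a set's probes into 1 value. The deposited arrays were nonetheless not fully alike. The median of genes on an array was 6.43 to 6.74 in heat-shocked and 7.29 to 7.45 in untreated Q111 cells. In Q7 cells it was 6.80 to 7.16 after heat shock and 7.29 to 7.47 at 33 °C. Which program ran it, with which chip definition, is not stated in the sources used. Scanner files were not used here, so single probes were not assessed. The number of arrays limits precision.

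The table held 45101 rows, 64 of them controls. Of the other probe sets 34945 named 1 gene in the platform annotation, 932 named several and 9160 are unnamed here; 34741 were matched by gene identifier to RefSeq. Each gene was represented by its brightest probe set over all arrays. limma 3.58.1 in R 4.3.3 fitted 4 group means to all arrays (8 residual and 3.23 prior degrees of freedom), with two-sided tests and Benjamini-Hochberg adjustment over all genes or, for single probe sets, over all 45037 probe sets. Calls were made at an adjusted p under 0.05. The fit was tested on simulated data with the spread of these arrays, for heat shock in Q7 cells. Of 100 genes given a log2 change of 1, 40% were called, and of 100 given a change of 2, 91%. Far fewer genes changed there than were called in the data, so these shares cannot be carried over. A change that was not called may still be present. The 5 comparisons were heat shock within each line, the difference between those changes, and Q111 against Q7 cells at both temperatures.

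The members, the pathway and marker lists and the rules for named genes were chosen with earlier results of these data known. Named were all members, up to 3 called genes of largest change per list and comparison, and the 3 genes most like Dusp6, Spry2 and Etv5; other genes were named after their values were seen. Replicate numbers come from the labels. Deviations of same-numbered arrays from their group means correlated over 0.1 for all 3 numbers only between the untreated groups of the lines. Between heat-shocked and untreated Q111 cells r was 0.097, 0.180 and 0.241. What a number shares is not given, so the main fit used no pairing and the replicate block is an alternative only. List genes beyond the 104 measured were not analysed here. Alternatives tried were a mean over a gene's probe sets, brighter genes or genes above background alone, other scalings, a variance trend, array weights, the actin ratio as a covariate, only the groups compared, the replicate block, an adjusted p under 0.01, and each array left out.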

Additional observations from a re-analysis of the deposited data

Results flagged for a closer look

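The change on heat shock differed between the lines for 2 members by a test of the difference itself. For Dusp6 the change in Q111 cells exceeded that in Q7 cells by 2.22 (SE 0.20, limma adjusted p = 0.00137), and the 3 heat-shocked Q111 arrays all lay above the 3 untreated ones while the Q7 groups overlapped. The difference was called under all 25 alternatives, from 2.11 to 2.60. For Spred2 it was -2.27 (SE 0.39, limma adjusted p = 0.0094), with all heat-shocked arrays below the untreated ones in both lines, and it was called under all 25 alternatives but the mean of its 5 probe sets (-0.38, adjusted p = 0.484).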

How the results depend on the processing

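No called member changed sign under any alternative. Over members, comparisons and alternatives 1226 values kept their direction and side of the threshold, 34 lost a call, 40 gained one and 20 that were called in neither setting changed sign. For heat shock in Q111 cells, 4 members were called, against 2 with the actin covariate and 3 to 4 with 1 array left out. With that covariate 7.71% of all genes were called higher and 16.4% lower for heat shock in Q111 cells. For heat shock in Q7 cells, 3 members were called, against 5 with the mean of all probe sets, 6 with array weights (whose estimation did not converge), 0 with the actin ratio as a covariate, 5 with only the groups compared and 5 with a replicate block there, and 2 to 5 with 1 array left out. For the difference of effects, 2 were called, against 1 with the mean of probe sets, 6 with array weights and 2 to 4 with 1 array left out. At 33 °C 5 were called, against 3 among the brighter genes, where Spry4 and Etv4 were not tested, and 4 to 6 with 1 array left out. After heat shock 7 were called, against 3 with only the groups compared and the replicate block, and 6 to 7 with 1 array left out. With a replicate block in the fit of all 12 arrays these counts were 4, 3, 2, 5 and 7, so the block changed no count there. Apart from the actin covariate, the shares of all genes called under the alternatives of this paragraph are not given here.

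Of the member probe sets 8 were called for heat shock in Q111 cells (20 with arrays centred on the median of genes, 4 at an adjusted p under 0.01, 4 to 8 with 1 array left out), 7 in Q7 cells (3 at 0.01, 3 to 9), 2 for the difference (1 at 0.01, 1 to 2), 9 at 33 °C (6 to 11) and 14 after heat shock (8 with that centring, 7 at 0.01, 10 to 14). The shares of all probe sets called under these alternatives are not given here, so these counts have no background beside them. The call for Dusp6 on heat shock in Q111 cells, for the difference and at 33 °C held under all alternatives run, as did those for Spry4, Etv4 and Etv5 at 33 °C.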
